A study of Mus musculus with 33 samples.

Results

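The genes described here are 9 Toll-like receptors and adaptors: the surface receptors Tlr2 and Tlr4, the endosomal receptors Tlr7, Tlr9 and Tlr13, the co-receptors Cd14 and Ly96, the signalling adaptor Myd88 and the chaperone Unc93b1. They were taken by name and not by a measured value, and all 9 were found by symbol among the 32285 genes listed in the files. The study used SAMENT, a method in which tumour cells carrying an enzyme attach biotin to the cells beside them, so that cells of the metastatic niche can be sorted as biotin positive and the rest of the same tissue as biotin negative. In the intracardiac experiment tumour cells were injected into the heart of mice, and bone (femurs and tibias), brain, liver and lung were collected after overnight labelling; each tissue gave 4 biotin positive and 4 biotin negative samples, 32 in all. In the second experiment, whose injection the labels name IIA, bone was taken after 6 injections, and the 12 samples (a positive and a negative one per injection) were pooled in 1 matrix and told apart by hashtag antibodies. No sample is labelled as coming from an animal without an injection, so the biotin negative cells are cells of injected animals too. The sources used here give no tumour line, mouse strain, sex or age. The labels do not say whether a number stands for 1 animal, so p-values measure the spread between these samples, which may in part be technical.

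Toll-like receptors recognise conserved microbial molecules and, on binding, recruit adaptors that switch on NF-κB and interferon regulatory factors. Tlr2 binds lipoproteins, and Tlr4 binds lipopolysaccharide with the help of Cd14, which hands the lipid over, and Ly96 (MD-2), which sits on the receptor. Tlr7, Tlr9 and Tlr13 read single-stranded RNA, CpG DNA and bacterial ribosomal RNA in endosomes, and Unc93b1 carries them there. All 5 receptors signal through Myd88. In bone marrow and inflamed tissue these genes are best known from neutrophils, monocytes, macrophages, B cells and plasmacytoid dendritic cells.

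The genes were measured as UMI (unique molecular identifier) counts, from the 3' end of transcripts in the intracardiac samples and from the 5' end in the IIA samples, so levels were not compared between the experiments. On GRCm38, the build the labels call mm10, Tlr2 lies at chr3:83836272-83841767 on the minus strand, Tlr4 at chr4:66827584-66930284 on the plus strand, Tlr7 at chrX:167304929-167330558 on the minus strand, Tlr9 at chr9:106222598-106226883 on the plus strand and Tlr13 at chrX:106143204-106160493 on the plus strand. Ly96 lies at chr1:16688051-16709611 on the plus strand, Myd88 at chr9:119335934-119341411 on the minus strand and Unc93b1 at chr19:3935186-3949340 on the plus strand. All 9 genes are annotated as protein coding.

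RefSeq windows around the gene start (GRCm38.p6) were used for Tlr2, Tlr9, Tlr13 and Myd88, 4 of the 9 genes. That of Myd88 lies within the annotated gene and holds 0 upstream bases. The upstream bases of Tlr2, which was called in IIA mature neutrophils below, and of Tlr9, which was highest in B cells and plasmacytoid dendritic cells, are shown on the gene's own strand, 5′ to 3′, ending where the annotation of the gene begins; capitals mark a match to the AP-1 letters TGANTCA.
Tlr2, 91 bases, chr3:83841768-83841858, minus strand: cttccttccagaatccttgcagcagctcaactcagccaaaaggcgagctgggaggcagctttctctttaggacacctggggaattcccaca
Tlr9, 250 bases, chr9:106222348-106222597, plus strand: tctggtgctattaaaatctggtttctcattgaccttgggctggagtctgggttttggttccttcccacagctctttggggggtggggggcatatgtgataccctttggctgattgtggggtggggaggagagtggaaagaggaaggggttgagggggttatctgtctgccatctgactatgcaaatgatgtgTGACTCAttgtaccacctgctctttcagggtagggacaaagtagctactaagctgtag
In the 300-base RefSeq windows (250 bases before to 50 after the start) 3 strings were searched on both strands. The AP-1 letters were found in Tlr9 alone of the 4, starting 58 bases before the start, and in 7.81% of all 32851 promoters. The PU.1 letters AGGAAGT also occurred in Tlr9 alone, starting 10 bases after the start, and in 9.35% of all promoters. The C/EBP letters TTGCNNCAA occurred in none of the 4 and in 2.08% of all promoters. A match of letters is a description and not a shown binding site.

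The quality filters left 55366 of 57065 intracardiac cells and 22362 of the 22685 IIA cells that could be assigned to a hashtag. Samples held 94 to 3505 kept cells and 482617 to 44834665 UMIs, the smallest being the biotin positive liver sample 4. Within one replicate number no barcode was shared between matrices (0 over 112 pairs), whereas 341 were shared over 384 pairs of different numbers. Levels are given as CPM, a gene's UMI counts per 1000000 UMIs of the sample, over all its cells or over the cells of a class with at least 20 cells in that sample. Classes are clusters named from marker lists and stand for resemblance, so that macrophage means macrophage-like; clusters that could not be named held 15% of intracardiac cells (34.4% in biotin negative bone) and 7.96% of IIA cells. The 9 genes and 67 other genes of the pathway were kept out of the genes used for clustering.

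Cd14, the lipopolysaccharide co-receptor, was highest in mature neutrophils of the intracardiac samples, at 2445 ± 1341 CPM (mean ± SD, 31 samples), followed by macrophages at 1249 ± 725 (25 samples), monocytes at 1070 ± 693 (24 samples) and brain microglia at 916 ± 282 (3 samples). Alveolar macrophages stood lower at 331 ± 172 (5 samples) and immature neutrophils at 294 ± 146 (15 samples). The spreads of neighbouring classes in this order overlapped, apart from those of microglia and alveolar macrophages. Here and below, a class mean pools the tissues and sorts where the class had enough cells, and these differ by class: microglia come from 3 positive brain samples, and alveolar macrophages from 5 lung samples, 4 of them positive. An order of classes therefore cannot be told apart from tissue and sort. T cells, which should lack Cd14, still gave 190 ± 254 CPM (7.03 to 1062 over 26 samples) and B cells 44.2 ± 39.2, so Cd14 at or below the level of T cells was read as background. Its companion Ly96 had another order, with macrophages at 66.1 ± 24.7, endothelial cells at 58.0 ± 29.4 (9 samples) and monocytes at 47.8 ± 13.2, against 22.5 ± 5.58 in mature neutrophils and 7.12 ± 5.36 in T cells.

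The surface receptor Tlr2 had a mean of 357 ± 173 CPM in alveolar macrophages (170 to 635), 247 ± 94.8 in microglia, 196 ± 98.1 in monocytes, 147 ± 49.8 in mature neutrophils, 145 ± 78.8 in macrophages and 12.4 ± 8.62 in B cells. Monocytes of negative lung samples alone held 162 to 356 CPM of Tlr2, which overlaps with the alveolar macrophages. Tlr4 reached 54.3 ± 18.1 CPM in mature neutrophils, 47.6 ± 5.54 in alveolar macrophages and 46.6 ± 20.5 in macrophages, which did not differ beyond their spread, while monocytes stood at 21.4 ± 5.49 and T cells at 2.43 ± 3.63. The common adaptor Myd88 was highest in mature neutrophils at 112 ± 23.0 CPM and monocytes at 82.5 ± 10.4, and lowest in plasma cells at 4.73 ± 5.11 (4 samples).

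The endosomal receptors divided the classes differently. Tlr7 had a mean of 325 ± 102 CPM in microglia (252 to 441), 85.8 ± 65.7 in macrophages, 83.2 ± 31.8 in plasmacytoid dendritic cells (9 samples), 74.4 ± 34.5 in alveolar macrophages, 50.4 ± 10.1 in monocytes, 20.4 ± 10.5 in B cells and 3.02 ± 3.28 in other dendritic cells. Macrophages of positive brain samples alone held 121 to 265 CPM of Tlr7, which overlaps with microglia. Tlr13 was highest in mature neutrophils at 166 ± 43.2 CPM, then microglia at 109 ± 22.6, monocytes at 89.3 ± 21.5 and macrophages at 83.7 ± 27.3. Tlr9 was scarce, with 221 UMIs in all 32 intracardiac samples: plasmacytoid dendritic cells had 5.41 ± 6.07 CPM (23 UMIs) and B cells 3.5 ± 3.95 (40 UMIs), and 2 UMIs fell in the mature neutrophils of 31 samples. Unc93b1, the chaperone of these receptors, was highest in plasmacytoid dendritic cells at 426 ± 79.6 CPM and microglia at 419 ± 40.2, and stood at 302.6 ± 89.9 in macrophages, 272 ± 62.6 in B cells, 83.8 ± 15.9 in mature neutrophils and 27.5 ± 14.2 in T cells.

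**Figure D1:**
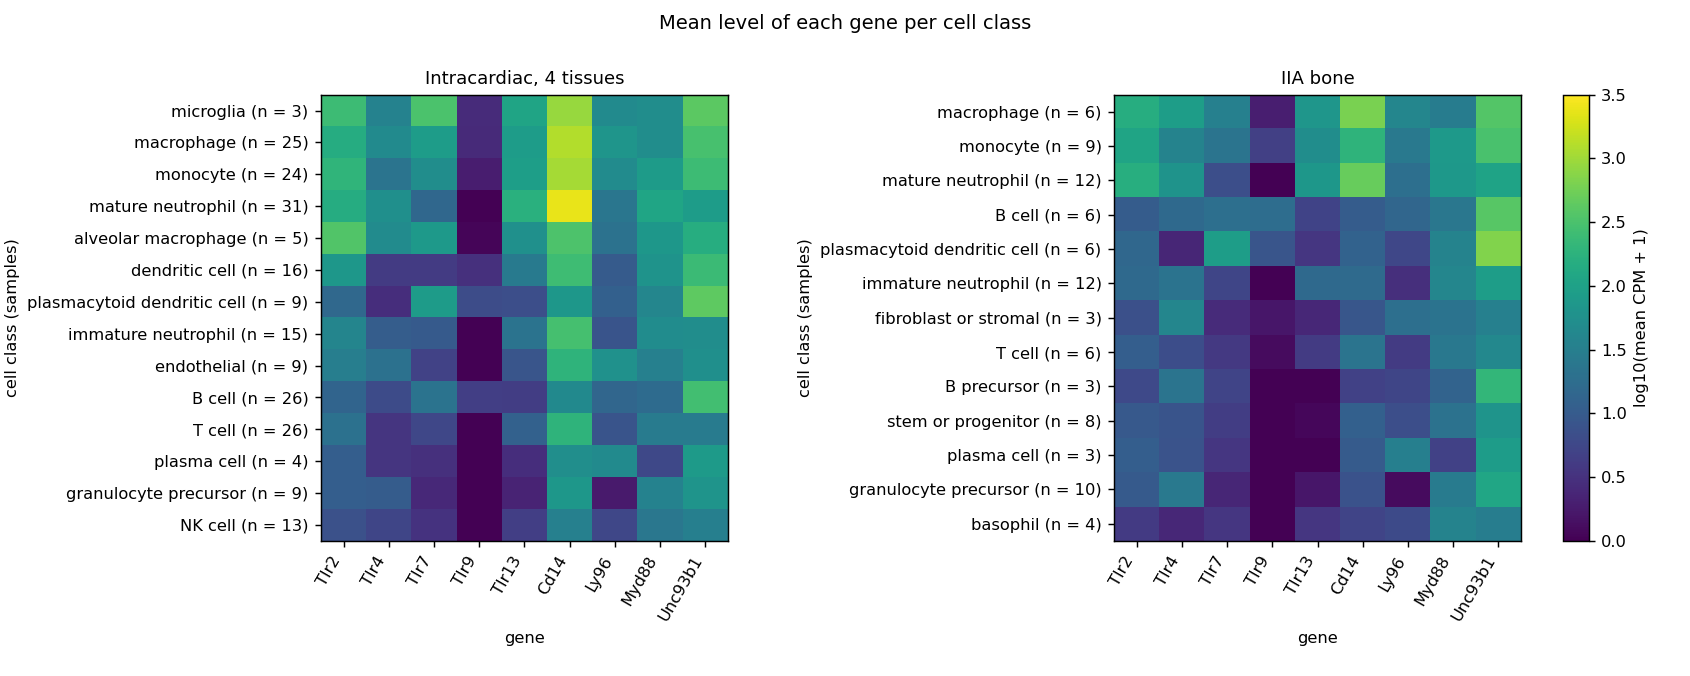
Mean level of the 9 genes in each cell class, as log10(mean CPM + 1) on a colour scale, for the intracardiac samples (left) and the IIA bone samples (right); rows are classes with the number of samples that held at least 20 cells. Means are over both sorts; Cd14 is brightest in mature neutrophils on the left, while Tlr9 is the darkest column in both panels.

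In the IIA bone samples Unc93b1 was again highest in plasmacytoid dendritic cells, at 680 ± 56.8 CPM (6 samples), followed by B cells at 387 ± 99.6 and macrophages at 370 ± 142 (6 samples each). Tlr7 stood at 87.1 ± 31.6 CPM in plasmacytoid dendritic cells and 32.4 ± 3.40 in macrophages, and Tlr9 at 17.0 ± 16.9 in B cells (16 UMIs) and 7.25 ± 4.44 in plasmacytoid dendritic cells (9 UMIs), with 0 UMIs in mature neutrophils of 12 samples, which allows up to 0.231 CPM over their summed UMIs. Cd14 stood at 565 ± 201 CPM in macrophages of 5 positive samples and 867 in the 1 negative sample with enough of them, and at 815 ± 586 and 171 ± 107 CPM in mature neutrophils of the 6 positive and 6 negative samples, against 21.3 ± 21.4 in T cells. Macrophages are thus mostly from positive samples, and means over both sorts cannot rank these classes apart from the sort. Over both sorts, Tlr4 had a mean of 87.4 ± 21.8 CPM in macrophages. Tlr2 had 157 ± 80.8 in mature neutrophils and 149 ± 65.9 in macrophages, and Tlr13 had 69.8 ± 18.0 and 67.9 ± 4.38 there. Myd88 had 78.2 ± 20.9 in monocytes (9 samples) and 72.5 ± 11.3 in mature neutrophils. For Tlr2, Tlr13 and Myd88 these spreads overlap.

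Across 34 means of a class in a tissue (13 classes of the intracardiac samples), the genes whose levels ran most like these were found by Pearson's r of log2(CPM + 10) over 7786 genes, as a description, since the means share libraries and depth. Cd14 ran most like Ier3 (r = 0.958) and Tlr13 (0.944), Tlr2 like Tlr13 (0.911) and Bach1 (0.903), Tlr13 like Lrrc25 (0.946), and Tlr4 like Cebpb (0.894). Unc93b1 ran most like Ctsh (0.959), Tlr7 like Atp13a2 (0.891), Ly96 like Ifi204 (0.920) and Myd88 like Gcnt2 (0.915). Tlr9 was too low for its likeness to be read. Among the 9 genes themselves Cd14, Tlr13, Tlr2, Tlr4 and Myd88 had r of 0.690 to 0.944 with each other, and Unc93b1 was most like Tlr7 (0.742), leaving out Tlr9.

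Whether niche cells carried more or less of these transcripts was first asked over all cells of a sample, with edgeR's quasi-likelihood test in each tissue and Benjamini-Hochberg adjustment over all genes tested; log2 differences are positive minus negative, ± SE. In such sums, fewer cells of a type and less RNA per cell cannot be told apart. Tlr9 did not pass the filter on low counts in any tissue, and 0 of the other 8 genes were called in any of the 4 tissues at an adjusted p of 0.05. Of all genes tested, 0% were called for bone, 0% for liver, 2.90% for brain and 18.0% for lung. The unadjusted p was under 0.05 for 3 of the 8 genes in brain (20.8% of all genes), 1 in lung (34.8% of all genes) and 0 in bone and liver (7.80% and 13.2% of all genes). DESeq2 called Tlr7 in brain and lung, where it called 1225 of 11064 and 3094 of 12331 genes.

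Tlr7, the receptor for single-stranded RNA, stood in brain at 14.7, 42.0, 30.3 and 11.2 CPM in biotin negative samples 1 to 4 and at 54.0, 209, 90.3 and 127 CPM in biotin positive samples 1 to 4. Every positive sample lay above every negative one. In either direction, the sorts did not overlap for 1710 of all 11064 genes tested in brain. The log2 difference of Tlr7 was 1.98 ± 0.52 (edgeR adjusted p = 0.0771), or 2.20 without positive sample 1 (adjusted p = 0.0424; 6.49% of all genes called). With the replicate number as a block, which pairs the sorts, it was 1.99 with an adjusted p of 0.0137, and Ly96 was also called (0.88, adjusted p = 0.0477), where 6.84% of all genes were called. Ly96 stood at 14.2, 24.9, 28.4 and 14.7 CPM in the negative and 31.0, 81.9, 39.9 and 40.0 CPM in the positive brain samples, without overlap. The summed microglia markers (14 genes) ran from 228 to 530 CPM in negative and from 1411 to 8157 CPM in positive brain samples, with at most 1 marker at 0, and the macrophage markers (21 genes) from 651 to 4278 against 11537 to 49122 CPM; their part in the result was not tested. Tlr7 stood at 441, 252 and 282 CPM in microglia of positive brain samples 2 to 4, and no negative brain sample held 20 microglia.

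In lung, Tlr7 stood at 17.6, 31.4, 29.1 and 18.1 CPM in the negative and 42.7, 66.3, 57.9 and 41.3 CPM in the positive samples, again without overlap. In either direction, the sorts did not overlap for 2668 of all 12331 genes tested in lung. The log2 difference of Tlr7 was 0.85 ± 0.27 (edgeR adjusted p = 0.0593), or 1.11 without negative sample 2 (adjusted p = 0.0174; 18.5% of all genes called). Under the replicate block it was 0.91 (adjusted p = 0.0115), where 20.7% of all genes were called. The deviations of positive and negative lung sample 3 correlated at -0.0916, so this pairing is uncertain. The alveolar macrophage markers (16 genes, at most 1 at 0) summed to 1936 to 3758 CPM in negative and 7159 to 29401 CPM in positive lung samples, and their part in the Tlr7 difference was not tested. Alveolar macrophages of positive samples 1 to 4 held Tlr7 at 59.0, 65.7, 106.0 and 112 CPM. In liver and bone Tlr7 differed by 0.05 ± 0.58 and -0.24 ± 0.62.

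Cd14 differed by -1.0 ± 0.50 in lung (edgeR adjusted p = 0.19), by -0.72 ± 0.49 in liver, by -0.17 ± 0.60 in bone and by -0.11 ± 0.68 in brain. Lung Cd14 stood at 2287, 2495, 799.7 and 1694 CPM in negative and at 1120, 457, 1313 and 1478 CPM in positive samples, which overlap. Myd88 was lower in positive samples of all 4 tissues, by 0.41 to 0.64 on the log2 scale, and none of these values was called. The median difference over the 8 genes tested was -0.38 for bone, 0.20 for brain, 0.0016 for liver and -0.28 for lung, beside 0.01, -0.03, 0.02 and -0.04 over all genes tested there.

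The difference between tissues was tested directly, as the biotin effect of one tissue minus the mean of the other 3 over all 32 samples. In these 4 contrasts edgeR called 0 of 9 genes, while 0% of all genes were called for bone, 0.258% for brain, 0% for liver and 2.48% for lung. At an unadjusted p under 0.05 there were 3 in brain (1681 of all 13963 genes) and 0 in the other 3 contrasts (3.68 to 15.3%), and DESeq2 called 0. The brain values were 1.71 ± 0.66 for Tlr7 (adjusted p = 0.299), 1.08 ± 0.38 for Ly96 (adjusted p = 0.247) and 2.04 ± 0.87 for Tlr9 (adjusted p = 0.355). Tlr9 rests on 1 to 16 UMIs per brain sample and did not pass the filter in the fit of brain alone.

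Other genes of the pathway, 67 in 6 lists (other receptors, accessory proteins, adaptors and kinases, transcription factors, inhibitors, and target cytokines and chemokines), were read from the same fits. In lung 5 of the 65 tested were higher and 6 lower in positive samples, a share close to that of all genes (18.0%; 1400 higher and 822 lower of 12331). The higher ones included Cd36, a scavenger receptor that cooperates with Tlr2, at 263 ± 133 CPM in positive against 20.8 ± 10.6 in negative samples (log2 difference 3.37, edgeR adjusted p = 0.0065), and the receptors Tlr3 (1.87), Tlr8 (1.24) and Tlr5 (1.10). The alveolar macrophage markers given above for lung (1936 to 3758 against 7159 to 29401 CPM) moved with these genes too, and their part was not tested. The lower ones included Ly86 (-1.21), which sits on the Toll-like protein Cd180, the kinase gene Ikbke (-0.92), Traf3 (-0.62) and the inhibitor Socs1 (-1.52). In bone, brain and liver edgeR called none of the 63, 62 and 65 tested.

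Within a cell class, 17 combinations of class and tissue had at least 20 cells in at least 3 samples of each sort. In 16 of them edgeR called none of the genes described here. Mature neutrophils could be compared in all 4 tissues, where 0% of all genes were called in each and 0 of the 8, 7, 8 and 8 genes tested in bone, brain, liver and lung; of these 31 values only that of Tlr7 in bone (0.95 ± 0.42) reached an unadjusted p below 0.05 (1.61% of all genes there), with 0 calls by DESeq2. The tests between tissues within mature neutrophils called 0% of all genes for bone, for brain, for liver and for lung (0%, 0%, 0% and 0%), with 1 unadjusted p under 0.05 among the genes described here (0.727 to 1.80% of all genes). Cd14, the most abundant of the 9 in these cells, differed between sorts by 0.46 ± 0.38 (bone), -0.03 ± 0.41 (brain), -0.05 ± 0.20 (liver) and 0.08 ± 0.21 (lung).

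The other classes without a call were B cells of bone, liver and lung, liver endothelial cells, granulocyte precursors, immature neutrophils and monocytes of bone, monocytes and T cells of lung, and T cells of brain, each with 0% of all genes called (0% in each of the 10 fits). The macrophages of liver (0.0391% of all genes called) and lung (0.278%) had no call either. Liver macrophages were of different clusters in the sorts. Pooled over samples, cluster 3 held 89.8% of negative and 20.4% of positive cells, and cluster 27 held 9.81% and 77.8%. By sample, cluster 3 held 84.3 to 97.7% of negative and 3.81 to 58.8% of positive cells (3 positive samples). Cluster 27 held 0 to 15.7% and 39.2 to 94.5% by sample. Over these 16 fits the unadjusted p was under 0.05 for 5 of the 90 values, beside 0.765 to 15.1% of all genes in single fits (15.1% and 13.6% in liver and lung macrophages). DESeq2 called 1, Myd88 of lung macrophages (97 of 6110 genes there). With the replicate block 2 further fits had a call: Cd14 in bone monocytes (0.39, adjusted p = 0.0041; 1.29% of all genes) and Cd14 in brain T cells (-1.27, adjusted p = 0.0401; 1.28% of all genes). Bone monocytes held Cd14 at 624, 885, 487 and 309.1 CPM in negative samples 1 to 4 and at 867, 1411 and 528 CPM in positive samples 1 to 3, which overlap. The T cell values, 71.0, 100.3, 123 and 71.0 CPM against 77.1, 52.9 and 7.03 CPM, rest on 1 to 97 UMIs per sample in cells that should lack the gene.

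In brain macrophages edgeR without the block called Ly96. This gene, the lipid-binding partner of Tlr4, stood at 63.4, 33.5, 46.0 and 62.0 CPM in negative samples 1 to 4 and at 131, 101, 87.8 and 107 CPM in positive samples 1 to 4. The groups did not overlap, and in either direction the same held for 634 of all 4398 genes tested. The log2 difference of Ly96 was 1.04 ± 0.24 (edgeR adjusted p = 0.0258), in a fit where 7.25% of all genes were called and 1 of the 8 genes described here. The call was lost without negative sample 2 or 3 or without positive sample 1, 2 or 4 (adjusted p up to 0.0808 over the samples left out) and at Leiden resolution 0.5. With the replicate block Tlr4 (1.22, adjusted p = 0.0229) and Tlr7 (0.73, adjusted p = 0.0356) were called as well, where 15.3% of all genes were. Of the pathway lists 1 gene of 34 tested was called, the kinase Tbk1, higher by 1.05.

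The macrophage class of the brain was made of different clusters in the 2 sorts. Pooled over samples, 81.4% of negative macrophages lay in cluster 3, whose leading genes include Pf4 and Spp1, and 10.5% of positive ones. Cluster 34, led by Ccl12, Ptgds, Ccn1, Cbr2, Gpx3 and Lyve1, held 18.3% and 89.3%. By sample, cluster 3 held 67.9 to 88.5% of negative and 7.09 to 54.3% of positive macrophages, and cluster 34 held 11.5 to 32.1% and 45.7 to 92.5%. Over all tissues Ly96 stood at 59.1 ± 18.9 CPM in cluster 3 (24 samples) and at 116 ± 20.7 in cluster 34 (5 samples), and Tlr7 at 63.3 ± 34.9 and 257 ± 87.1. Within cluster 3 alone, with 4 negative and 3 positive brain samples, Ly96 was 53.8, 24.8, 44.3 and 43.4 CPM against 71.6, 71.8 and 82.5 CPM, a log2 difference of 0.92 ± 0.35 that was not called (edgeR adjusted p = 1.0), in a fit that called 0% of all genes (0.409% with the block). The summed macrophage markers ran from 19874 to 36301 CPM in negative and from 47410 to 64578 CPM in positive brain macrophages, and the dendritic cell markers from 22360 to 30638 against 7910 to 19595 CPM; the part of this mix in the Ly96 call was not tested.

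Lung macrophages came to 97.7% (negative) and 98.1% (positive), pooled over samples, from the same cluster 3. Myd88, the adaptor of all 5 receptors, stood there at 66.2, 89.9, 61.5 and 56.9 CPM in negative and at 37.3, 41.4, 44.4 and 37.5 CPM in positive samples. The groups did not overlap, and in either direction the same held for 475 of all 6110 genes tested. The log2 difference of Myd88 was -0.86 ± 0.20 (edgeR adjusted p = 0.0960). Cd14 stood at 3137, 1485, 1412 and 1470 CPM in negative and at 1606, 685, 1185 and 742 CPM in positive samples, where positive sample 1 lay above 3 of the 4 negative ones; the log2 difference was -0.92 ± 0.35 (adjusted p = 0.266). With the replicate block 3 of the 8 genes were called, all lower in positive cells: Cd14 (-0.93, adjusted p = 0.0017), Myd88 (-0.89, adjusted p = 0.0098) and Tlr2 (-0.58, adjusted p = 0.0402), beside 7.68% of all genes. The deviations of positive and negative lung sample 3 correlated at -0.0916 over all cells, so the pairing behind these calls is uncertain. Within cluster 3 the blocked values were -0.95 for Cd14 (adjusted p = 0.0018), -0.92 for Myd88 (0.0080) and -0.61 for Tlr2 (0.0295), beside 8.77% of all genes. The summed mature neutrophil markers of these macrophages ran from 4759 to 8225 CPM in negative and from 6812 to 8160 CPM in positive samples. The part of other cell types or of a mix within the cluster was not tested. None of the 52 pathway genes tested was called in the fit without the block, where 0.278% of all genes were.

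**Figure D2:**
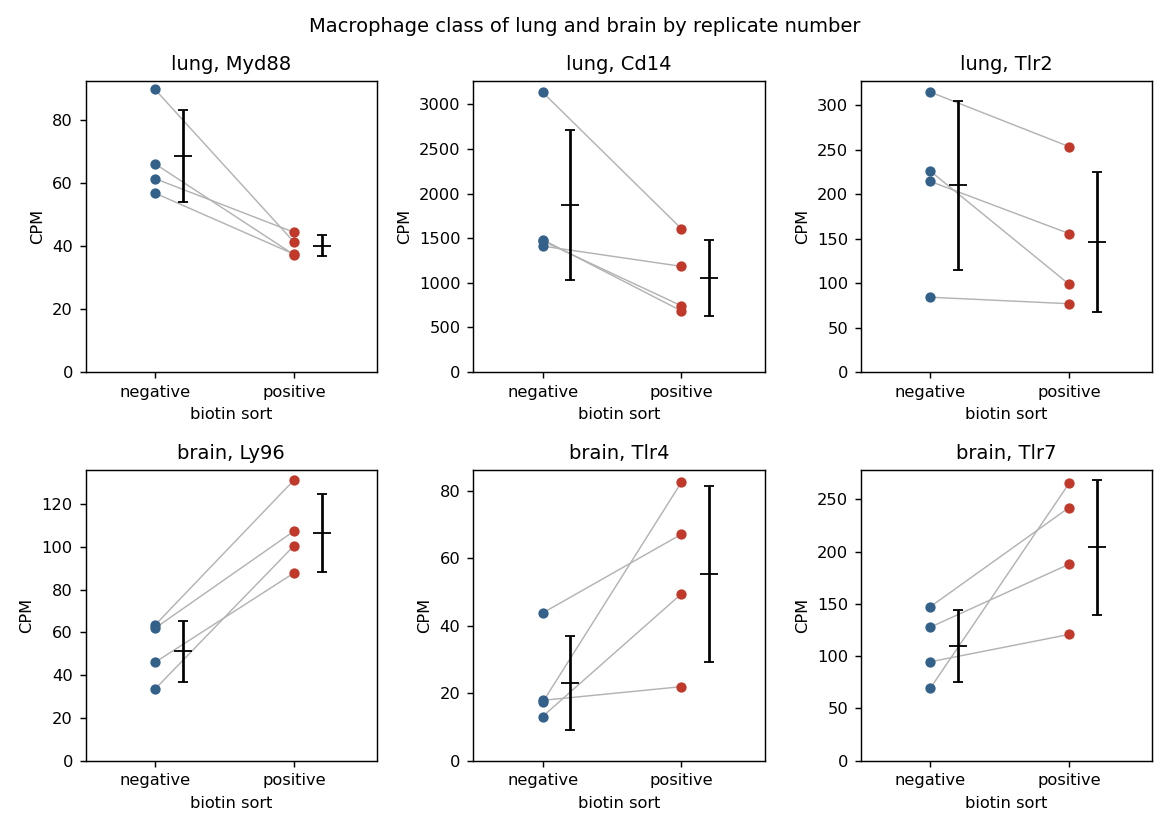
Levels (CPM, linear axis from 0) of 3 genes in lung macrophages (top) and 3 in brain macrophages (bottom), with biotin negative samples in blue and positive in red, grey lines joining samples of the same replicate number, and black marks for mean ± SD. Myd88 falls along every line in lung, and Ly96 in brain is higher in all 4 positive samples than in any negative one.

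In bone of the IIA experiment 50.1% of all genes were called over all cells, and 1 of the 8 genes tested. Myd88 ran from 40.2 to 49.6 CPM (median 44.2) in the 6 negative samples and from 29.7 to 38.1 CPM (median 31.2) in the 6 positive ones. The groups did not overlap, and Myd88 fell by 0.67 on the log2 scale (SE 0.09, edgeR adjusted p = 0.00013). In either direction, the sorts did not overlap for 3865 of all 12625 genes tested. With the injection number as a block, where 44.8% of all genes were called, Tlr13 (-1.18, adjusted p = 0.0436) and Tlr9 (-2.19, adjusted p = 0.010) were called as well. Tlr9 rests on 6 to 32 UMIs per negative and 0 to 4 UMIs per positive sample. Tlr13 ran from 19.0 to 39.3 CPM in negative and from 4.44 to 46.5 CPM in positive samples, positive sample 2 being the highest of all 12. Without that sample edgeR called Tlr13 (-1.28), Unc93b1 (-0.43) and Tlr7 (-1.04) besides Myd88, where 53.1% of all genes were called. Without positive sample 4 it called Tlr4 (0.58) besides Myd88, where 48.2% of all genes were called. The median difference over the 8 genes was -0.20, beside 0.08 over all genes.

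The makeup of these sums differed between sorts. Immature neutrophils made up 28.6 to 52.7% of the cells of negative and 5.57 to 20.4% of positive samples, macrophages 0.0325 to 2.27% and 4.02 to 52.0%, granulocyte precursors 0.594 to 2.24% and 2.89 to 39.5%, and B cells, where Tlr9 was highest, 1.38 to 8.36% and 0.206 to 2.81%. Their part in the differences over all cells was not tested. Within the classes that could be compared Myd88 differed by 0.13 in mature neutrophils, 0.05 in immature neutrophils, -0.08 in granulocyte precursors and 0.10 in monocytes, none of them called. Of the 62 pathway genes tested over all cells 7 were higher and 15 lower in positive samples, a smaller share than that of all genes (3399 higher and 2920 lower of 12625). They included Tirap, the adaptor that brings Myd88 to Tlr2 and Tlr4 (-1.11), the kinases Irak4 (-0.71) and Irak1 (0.48), Ikbkb (-0.48), Tab2 (-0.46), the NF-κB subunit Rela (-0.54), the chaperone Hsp90b1 (1.04) and the chemokine Ccl5 (-2.99).

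In mature neutrophils of IIA bone 14.4% of all genes and 3 of the 7 genes tested (Tlr2, Tlr4 and Cd14) were called, all 3 higher in biotin positive cells. Tlr2 ran from 72.2 to 107 CPM (median 89.7) in the 6 negative and from 153 to 317 CPM (median 197) in the 6 positive samples. Every positive sample lay above every negative one, and the log2 difference was 1.28 ± 0.17 (edgeR adjusted p = 9.0e-05). In either direction, the sorts did not overlap for 168 of all 6188 genes tested in these cells. The Tlr2 call held in all 18 alternatives computed for it, 12 of which leave out 1 sample.

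Cd14 ran from 49.8 to 366 CPM (median 162) in negative and from 226 to 1744 CPM (median 610) in positive samples. The groups overlapped in range, since negative sample 3 lay above positive sample 4, but in each of the 6 injections the positive sample was the higher one. The log2 difference was 2.29 ± 0.56 (edgeR adjusted p = 0.0231), and 2.15 with the injection as a block (adjusted p = 3.2e-07). The call was lost without negative sample 2, positive sample 3 or positive sample 5 (adjusted p up to 0.0632). Tlr4 ran from 42.2 to 51.3 CPM in negative and from 45.1 to 137 CPM in positive samples, with a log2 difference of 0.73 ± 0.23 (adjusted p = 0.0365). The Tlr4 call was less stable: it held in 10 of 18 alternatives and was lost without any one of negative samples 1, 2, 3, 5 and 6 and positive samples 2 and 3, with adjusted p up to 0.156, and when the leading hashtag had to be at least 5 times the second (adjusted p = 0.0626). The positive Tlr4 values rest on 5 to 67 UMIs per sample.

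The other genes tested in these cells were not called: Myd88 0.13 ± 0.15, Unc93b1 -0.18 ± 0.13, Tlr13 -0.24 ± 0.19 and Ly96 -0.50 ± 0.26. Tlr7 and Tlr9 did not pass the filter on low counts. The median over the 7 genes was 0.13, beside 0.00 over all genes tested. The summed macrophage markers of these cells ran from 175 to 330 CPM in negative and from 146 to 345 CPM in positive samples, with 6 to 14 of 21 markers at 0, and the monocyte markers from 1319 to 1579 against 1732 to 2253 CPM, with 3 to 10 of 16 at 0; the part of the monocyte markers in these calls was not tested.

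**Figure D3:**
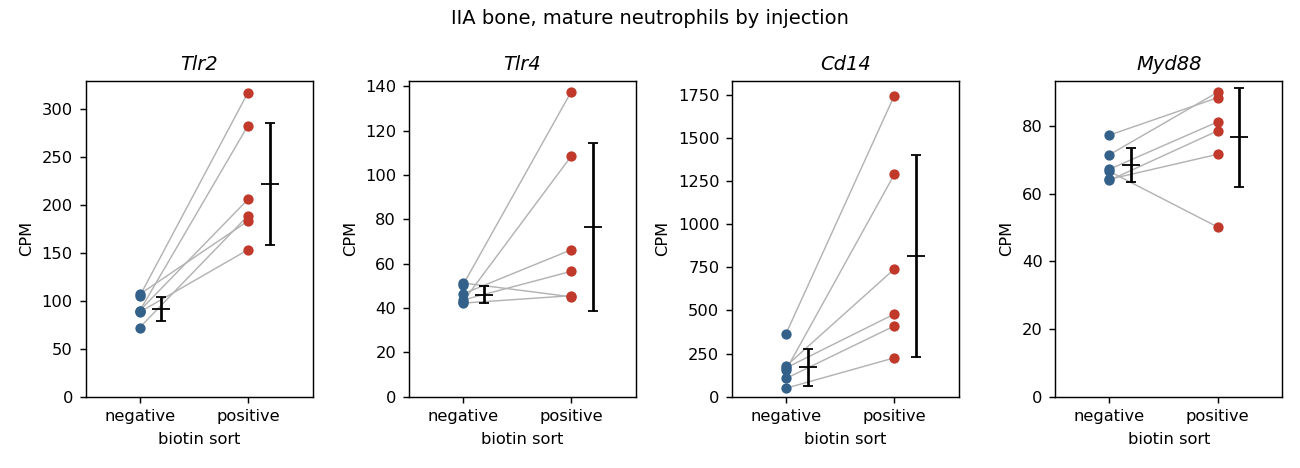
Levels (CPM, linear axis from 0) of Tlr2, Tlr4, Cd14 and Myd88 in mature neutrophils of the 12 IIA bone samples, biotin negative in blue and positive in red, with grey lines joining the 2 samples of an injection and black marks for mean ± SD. Tlr2 and Cd14 rise along all 6 lines, and Tlr2 does so without overlap of the groups.

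Of 43 pathway genes tested in the same cells 15 were higher, 0 lower and 28 not called, beside 595 higher and 297 lower of all 6188 genes tested. The higher ones were 2 of 14 adaptors and kinases, 2 of 7 transcription factors, 3 of 8 inhibitors and the 8 of 15 target cytokines and chemokines that passed the filter, whose median log2 difference was 2.88. They included Cxcl2, a neutrophil attractant (3.39, edgeR adjusted p = 0.0239), and Acod1, the itaconate enzyme (2.84, adjusted p = 0.0062). The NF-κB subunits Nfkb2 (1.54) and Nfkb1 (0.91), the feedback inhibitors Nfkbie (2.02), Tnfaip3 (2.62) and Nfkbia (1.97) and the kinase Ikbke (1.00) were higher as well. Of the 2 other Toll-like receptors tested and the 4 accessory proteins none was called.

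Cluster 3, whose 10 leading genes are Acod1, Hcar2, Cxcl2, Il1b, Ccl3, Ccl4, G0s2, Ptgs2, Nlrp3 and Cd14, held 4.81% of negative and 44.0% of positive mature neutrophils pooled over samples, and cluster 6, led by Retnlg, Cstdc4 and Mmp8, held 52.1% and 17.9%. By sample, cluster 3 ran from 0.40 to 8.54% in negative and from 6.12 to 70.1% in positive samples, and cluster 6 from 41.4 to 70.6% and from 8.96 to 59.2%, so the sorts overlap for both. Cd14 in cluster 3 was 1774 ± 733 CPM in negative (3 samples) and 1533 ± 735 in positive cells (5 samples), and in cluster 4 it was 705 ± 275 (5 samples) and 1000.2 ± 298 (3 samples). In cluster 5 it was 53.5 ± 34.6 and 48.3 ± 22.5 CPM, and in cluster 6 it was 32.5 ± 27.4 and 47.3 ± 36.6. Tlr2 was likewise highest in cluster 3, at 336 ± 96.8 CPM in negative and 454 ± 78.9 in positive cells, and at most 156 CPM in any sample of clusters 4 to 6. Within clusters 3, 4, 5 and 6 edgeR called none of the genes described here and 0%, 0%, 0% and 0% of all genes. With the injection as a block it again called none of them, beside 0.464%, 0.191%, 0.129% and 0.0778% of all genes. These fits called next to nothing and so do not set the genes described here apart. The Cd14 differences were -0.19 ± 0.36, 0.47 ± 0.28, -0.36 ± 0.64 and 0.26 ± 1.00 without the block. With the block they were 0.15 ± 0.15, 0.19 ± 0.13, -0.50 ± 0.47 and 0.12 ± 0.39, so the sign in cluster 3 changed. Since clusters were formed from the same cells, the shares and levels are a description.

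**Figure D4:**
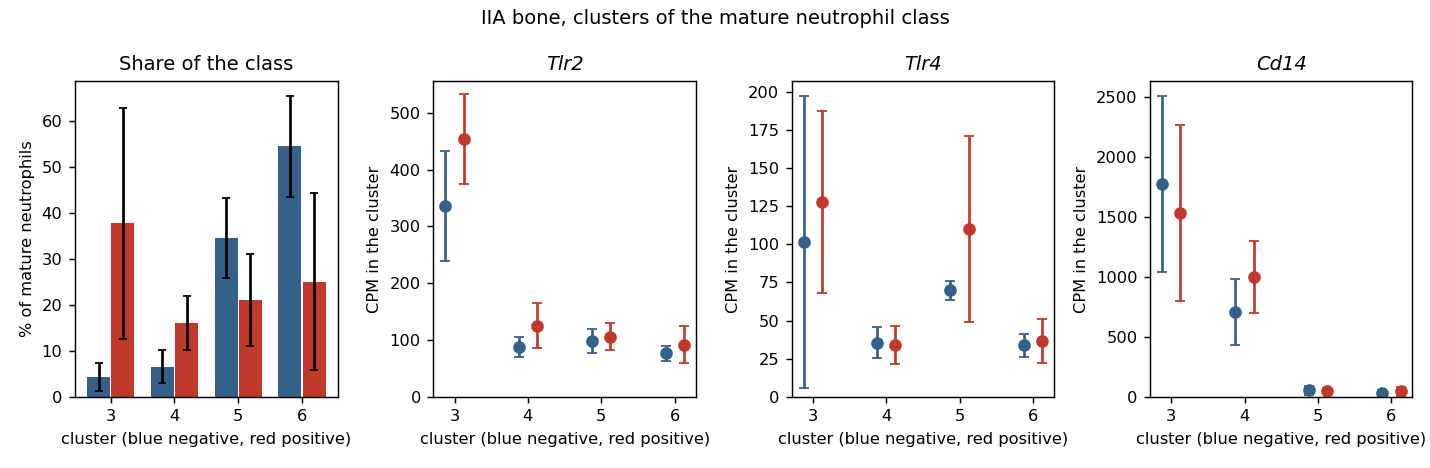
Share of mature neutrophils in each of 4 clusters (left, mean ± SD of samples, in percent) and the level of Tlr2, Tlr4 and Cd14 inside each cluster (CPM, mean ± SD of samples with at least 20 cells), biotin negative in blue and positive in red. Cluster 3 has a larger mean share in positive samples (37.8 ± 25.2% against 4.31 ± 2.95%), with overlapping ranges, and the levels inside it are, for negative and positive samples, 1774 and 1533 CPM for Cd14 and 336 and 454 CPM for Tlr2, in 3 and 5 samples.

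Immature neutrophils of IIA bone (8.99% of all genes called) gave no call among 7 genes, with 1 unadjusted p under 0.05 (Tlr2, -0.63; 22.2% of all genes) and 0 calls by DESeq2. With the injection as a block Cd14 was called there (-1.24, adjusted p = 0.0013, beside 9.88% of all genes), on 1 to 8 UMIs per positive sample and a level of 11.4 to 49.97 CPM in negative samples. T cells stood at 21.3 ± 21.4 CPM. Granulocyte precursors (13.9% of all genes) and monocytes (0%) gave no call among 3 and 8 genes, with 1 unadjusted p under 0.05 each (Unc93b1, -0.29, and Tlr13, -0.81; 28.0% and 8.68% of all genes) and 0 calls by DESeq2. Macrophages had 20 cells in too few negative samples for a test.

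Last, the levels were compared between tissues in biotin negative cells alone. In mature neutrophils Cd14 was the 1 gene of 8 that differed over the 4 tissues (F test, edgeR adjusted p = 0.0476; 1.76% of all genes) and the 1 gene that differed between bone and the other tissues (2.46% of all genes). Bone samples 1 to 4 stood at 872, 1565, 676 and 470 CPM, brain at 742, 2748, 1624 and 1847, liver at 2969, 3803, 1943 and 3107, and lung at 5514, 3672, 2589 and 3331 CPM. Bone lay below every liver and lung sample and overlapped with brain, and bone minus the mean of the others was -1.73 ± 0.37 (adjusted p = 0.0221). T cells of the same samples held Cd14 at 15.5 to 82.8 CPM where bone was the tissue, 71.0 to 123 for brain, 16.5 to 352 for liver and 53.2 to 322 for lung. The bone difference was lost without bone sample 1, 3 or 4 and was -2.28 without bone sample 2, the F test was called in 3 of the 16 fits that left out 1 sample, and both calls were lost without the filter on low counts.

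The mix of clusters among mature neutrophils differed between tissues, with overlap between samples. Pooled over negative samples, cluster 8, led by Igfbp6, Csf3r and H2-Q10, held 65.0% of them there (23.8 to 80.4% by sample), against 13.7% for brain (4.34 to 23.8%), 15.1% for liver (3.18 to 38.1%) and 9.90% for lung (1.56 to 21.6%). Cluster 10, led by Il1b, Acod1 and Ccrl2, held 5.99% in bone (2.51 to 12.2% by sample) and 27.6% (8.65 to 29.7%), 49.6% (31.95 to 58.9%) and 58.4% (41.5 to 79.5%) in brain, liver and lung. Inside cluster 8, chosen after its values were seen, the bone samples had Cd14 at 221, 640, 467 and 314 CPM, the brain samples at 988, 2483 and 2049, the liver samples at 2348, 2375 and 2930 and the lung samples at 4235, 2517 and 3389. In cluster 10 bone (1941 to 2902 CPM) overlapped with brain (2123 to 3905) and liver (2276 to 4642), and in cluster 11 bone (788 to 1816 CPM) overlapped with brain (781 to 2372). Cluster 9 had 1 bone sample, at 402 CPM, and brain samples at 433 and 1258 CPM. The part of the cluster mix in the bone difference was not tested.

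**Figure D5:**
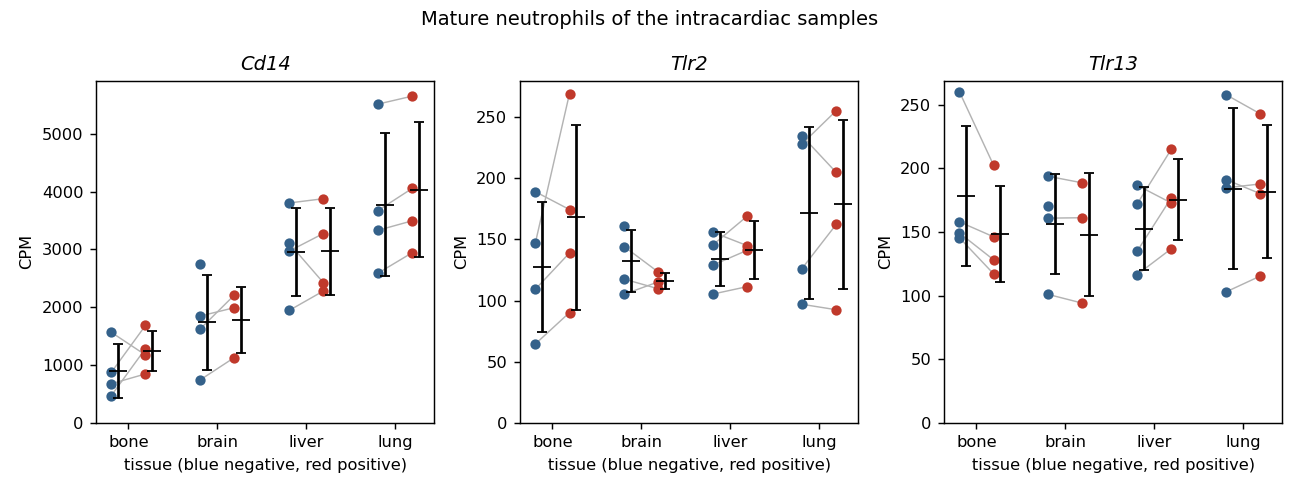
Levels (CPM, linear axis from 0) of Cd14, Tlr2 and Tlr13 in mature neutrophils of the intracardiac samples by tissue, biotin negative in blue and positive in red, with grey lines joining samples of the same replicate number and black marks for mean ± SD. The mean of Cd14 is lowest in bone and highest in lung in both sorts, while Tlr2 and Tlr13 overlap between tissues.

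In the other classes edgeR called none of the genes between tissues. Over the 4 tissues 0% of all genes were called in B cells, 0.0916% in T cells and 0.0105% in monocytes, and for bone against the others 0% in B cells, 0.0305% in T cells and 0.0105% in monocytes. At an unadjusted p under 0.05 there were 3 in monocytes for the test over 4 tissues (7.98% of all genes) and 2 for bone against the others (6.31%), and 0 in B and T cells (3.12 to 7.16%). DESeq2 called Tlr2 in monocytes over the 4 tissues (adjusted p = 0.0037; 150 of 9504 genes): bone samples stood at 190, 211, 178 and 98.0 CPM, brain samples at 118, 199, 153 and 162, liver samples at 67.6, 155, 125 and 86.0 and lung samples at 351, 356, 257 and 162. Lung was highest in 3 of its 4 samples and overlapped with bone and brain in the other.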

How the data were processed

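Single cells were read as UMI counts, which the authors deposited unnormalized, 1 matrix per intracardiac sample and 1 pooled IIA matrix with hashtag counts; the authors' use of Cell Ranger, Seurat and mm10 is per the submitters' processing notes. The 9 genes and all gene lists were chosen with earlier results of these data known. Cells with at least 500 UMIs, 200 genes and at most 15% mitochondrial UMIs were kept; an IIA cell needed at least 10 counts of its leading hashtag and 3 times those of the second. The hashtag names of the deposited key differ from those in the matrix in their prefix and were matched by number. Cells were clustered (scanpy 1.11.5, Leiden resolution 1) and named from marker lists; doublets were not removed, and an alternative left out the 5% of cells with the highest Scrublet scores. Counts were summed per sample, or per sample and class with at least 20 cells in at least 3 samples of each sort, and tested with edgeR 4.0.16 (quasi-likelihood, TMM, filterByExpr, two-sided, false discovery rate 0.05) in R 4.3.3; DESeq2 1.42.0 was an alternative. The named genes were all 9 members, at most 8 called pathway genes per comparison by smallest adjusted p, and the 3 genes most alike. The edgeR step was tested on simulated data with 200 changed genes. The fits behind the leading values are not paired; a fit with the replicate number as a block was an alternative, printed where it changed a call. Numbers were taken to pair the samples: the deviations of same-numbered samples correlated at 0.448 to 0.738 in bone, 0.213 to 0.629 in brain and 0.256 to 0.501 in liver. In lung they ran from -0.0916 (number 3) to 0.481 and in IIA from 0.0778 to 0.562. There 3 of 4 pairs in lung and 5 of 6 in IIA exceeded 0.1, and the own number was the best match in 3 of 4 and 3 of 6. The IIA key pairs the sorts by injection. Intracardiac matrices of one number list the same hashtags, but numbers 3 and 4 list identical ones, and in lung the pairing is the least certain. Levels near 0 rest on few UMIs, and the limit that a count of 0 allows covers counting error only.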

Additional observations from a re-analysis of the deposited data

Results flagged for a closer look

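In groups of 4 to 6 samples, 1 sample stood far from the rest of its group in 17 of 216 groups of the 9 genes. For independent, normally spread values the limits used flag about 1 in 20 groups (10.8 expected). These groups share samples and some flags rest on 1 or 2 UMIs, so the expected number is only a rough guide. Over all cells of biotin negative bone, sample 1 had Ly96 at 22.2 CPM (others 11.9 to 13.6) and Unc93b1 at 199.6 CPM (others 83.1 to 102).

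In mature neutrophils of biotin negative samples, bone sample 3 had Tlr13 at 260.5 CPM (others 146 to 158), liver sample 3 had Ly96 at 26.4 CPM (others 16.6 to 17.6) and liver sample 1 had Unc93b1 at 103 CPM (others 79.1 to 82.5). Tlr9 was at 0.519 CPM in liver sample 4 and at 0.390 CPM in lung sample 1, on 1 UMI each, with the other samples at 0. In IIA bone, positive sample 4 had Tlr7 at 18.0 CPM on 2 UMIs (others 1.85 to 7.85).

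In macrophages, Cd14 was at 3137 CPM in biotin negative lung sample 1 (others 1412 to 1485), and Tlr7 at 80.7 CPM in biotin positive lung sample 2 (others 40.1 to 42.0). In brain, Tlr13 was at 47.0 CPM in positive sample 4 (others 87.2 to 90.6) and Tlr4 at 43.8 CPM in negative sample 4 (others 13.1 to 17.9).

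In immature neutrophils of IIA bone, negative sample 3 had Cd14 at 49.97 CPM (others 11.4 to 24.9) and Tlr7 at 9.88 CPM (others 4.22 to 6.11). Positive sample 2 had Tlr13 at 40.2 CPM on 4 UMIs (others 5.50 to 18.1) and Tlr4 at 0 CPM (others 20.7 to 27.5), and positive sample 5 had Ly96 at 2.41 CPM on 2 UMIs with the others at 0.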

How the results depend on the processing

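The replicate block, which pairs the sorts, called 2 genes over all cells in brain (6.84% of all genes), 1 in lung (20.7%) and 3 in IIA bone (44.8%). It called 3 each in brain and lung macrophages (15.3% and 7.68% of all genes). It called 1 each in bone monocytes (1.29%), brain T cells (1.28%) and IIA immature neutrophils (9.88%). The blocked fits also tested more genes over all cells (14406 against 12625 in IIA bone), so that Tlr9 entered there; otherwise the cause was not tested. DESeq2 called 1 gene over all cells in brain (11.1% of all genes) and 1 in lung (25.1%), 1 in lung macrophages (1.59%) and 1 in monocytes over the 4 tissues (1.58%). Without the filter on low counts 2 genes were called over all cells of IIA bone (25.8% of all genes), 3 in brain macrophages (4.92%), and 0 in the tests over 4 tissues (1.31%) and of bone (1.11%) in mature neutrophils. Without the highest Scrublet scores 1 was called over all cells of lung (18.4% of all genes) and 2 in brain macrophages (7.93%), at Leiden resolution 0.5 there were 0 in brain macrophages (5.81%), and 1 fit over 32 samples called 1 in brain (7.49%). Leaving out 1 sample at a time gave 0 to 1 gene over all cells in brain (1 without positive sample 1, 6.49% of all genes) and in lung (1 without negative sample 2, 18.5%), 1 to 4 in IIA bone (4 without positive sample 2, 53.1%), 0 to 3 in brain macrophages (3 without positive sample 3, 13.1%), 1 to 3 in IIA mature neutrophils (1 without negative sample 2 or positive sample 3, 10.3% and 6.77%), and 0 to 1 in each of the tests of mature neutrophils between tissues. The F test over 4 tissues held in 3 of 16 such fits. Of 107 values of called genes under the alternatives computed, 0 changed sign and 86 were called. The Tlr2 difference of IIA mature neutrophils ranged from 1.12 to 1.34 and that of Myd88 over all IIA cells from -0.72 to -0.63, all called. Alternatives without the highest Scrublet scores were not run for liver endothelial cells and IIA monocytes, which had too few samples left. Fits within single clusters and those leaving out samples for the difference between tissues were chosen after seeing the data. Low counts limit Tlr9 throughout and Tlr4 in small classes.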
